A study of Sus scrofa with 18 samples.

Results

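The H3K4me3 and H3K27ac peaks of cyclic circular muscle (CD15M_CM) were set against each other, to find where both histone marks lay on the same stretch of chromatin, where only H3K4me3 or only H3K27ac was called, and at which genes their strengths disagreed. The members were all 36331 H3K4me3 peaks and all 82037 H3K27ac peaks of this tissue, 118368 of the 320764 peaks in the 6 lists of the series. The tissue was the circular muscle layer of the myometrium, dissected from the mesometrial side of the uterus of Yorkshire gilts at estrous cycle day 15, and 2 gilts were pooled into 1 list per mark. Chromatin was profiled by CUT&Tag, in which an antibody guides a protein A-Tn5 transposase to the marked nucleosomes, with IgG as the control for both marks. The circular and longitudinal muscle of mated gilts on day 15 of pregnancy (GD15M_CM and GD15M_LM), also 2 gilts each, served only as further tissues in which the same genes could be looked up.

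H3K4me3 is a trimethylation of histone H3 laid down around active or poised gene starts, where it forms tall and narrow domains. H3K27ac is an acetylation of the same histone tail that sits at active promoters and, away from promoters, at active enhancers. A region with both marks is therefore usually read as an active promoter, and a distal region with H3K27ac alone as a candidate enhancer.

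Since each mark was represented by 1 pooled list, no replicate error could be attached to a peak, and every value below is a description of these 2 lists without a test between samples. The 95% Wilson intervals in brackets cover counting error over peaks or genes only, and neighbouring peaks and genes are not independent. Read depth is not part of the peak lists. A fold enrichment is the signal of the mark over IgG. Folds of the marks were not compared directly, because the highest fold was 59.1 for H3K4me3 and 14.3 for H3K27ac, and each peak was ranked within its own list instead (percentile, from 0 for the weakest to 100 for the strongest). The tissue is a bulk sample, so a mark carried by few cells and a mark that is weak in all cells cannot be told apart. As a look at the label of the tissue, all 10 smooth muscle markers carried both marks, with median percentiles of 85.6 for H3K4me3 and 87.9 for H3K27ac. Since 90.05% of all protein-coding genes with a peak carried both, as did all 10 uterine epithelial markers, these counts do not single out smooth muscle.

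Most H3K4me3 peaks carried H3K27ac, whereas most H3K27ac peaks stood alone. Of the H3K4me3 peaks, 24839 overlapped an H3K27ac peak by at least 1 bp (68.4%, 67.9 to 68.8) and 11492 did not (31.6%). Of the H3K27ac peaks, 28914 overlapped H3K4me3 (35.2%, 34.9 to 35.6) and 53123 did not (64.8%). Measured in base pairs, 63.6% of the H3K4me3 territory lay under H3K27ac and 46.6% of the H3K27ac territory under H3K4me3. The share of H3K27ac peaks depended on how many of them were called. When the H3K27ac list was shortened to its 36331 best peaks by −log10 p, 53.2% of H3K4me3 and 54.3% of H3K27ac peaks carried the other mark. A strict threshold (fold of at least 5 and −log10 p of at least 10) was also set on both lists. It left 16484 H3K4me3 and 10200 H3K27ac peaks, with the same fold limit for marks whose folds differ in range. The order then turned, to 40.9% of H3K4me3 and 68.7% of H3K27ac peaks.

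The peaks with H3K4me3 only were short and weak. Their median length was 361 bp and their median fold 3.53, against 1583 bp and 9.35 for H3K4me3 peaks with both marks. H3K27ac-only peaks differed less in fold from the H3K27ac peaks with both marks, with medians of 3.33 and 4.06, but they were also shorter, at 440 bp against 1094 bp. Where they lay separated the classes of H3K27ac more clearly. Positions were taken against all RefSeq genes, coding or not, and a gene end meant within 3 kb of either end. A gene end was near 15.7% of H3K27ac-only peaks (15.4 to 16.0) and near 70.4% of those with both marks (69.9 to 70.9). Of the H3K27ac-only peaks, 63.1% lay inside gene bodies and 21.2% outside genes. For H3K4me3 the position hardly differed between the classes, with 63.8% of the H3K4me3-only peaks and 65.5% of those with both marks near a gene end.

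The overlap rose steeply with the strength of H3K4me3. In the 5 lowest deciles of the H3K4me3 list by fold the share with H3K27ac stayed between 45.3% and 50.7%, rose to 62.2% and 86.8% in the next deciles, and reached 98.0%, 99.4% and 99.9% in the top deciles. Of the 3641 strongest H3K4me3 peaks, 3 lacked H3K27ac. They lay at the gene ends of CNKSR2, a scaffold protein of Ras signalling (chrX:17560085-17563250 on Sus scrofa 11.1, fold 29.3), between the adhesion genes MPZL2 and MPZL3 (chr9:45563660-45564590, fold 28.4), and at KNL1, a kinetochore gene (chr1:130728146-130729213, fold 25.7). For H3K27ac the rise was slower, from 22.5% in the lowest to 77.5% in the highest decile, and 1846 of the 8196 strongest H3K27ac peaks had no H3K4me3. The strongest of these with a named gene were inside TNRC6B, a cofactor of microRNA silencing (fold 9.77), RAD51B, a recombination gene (fold 9.71), FNDC3B (fold 8.92), and at RGS1, a regulator of G protein signalling (fold 8.76).

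**Figure D1:**
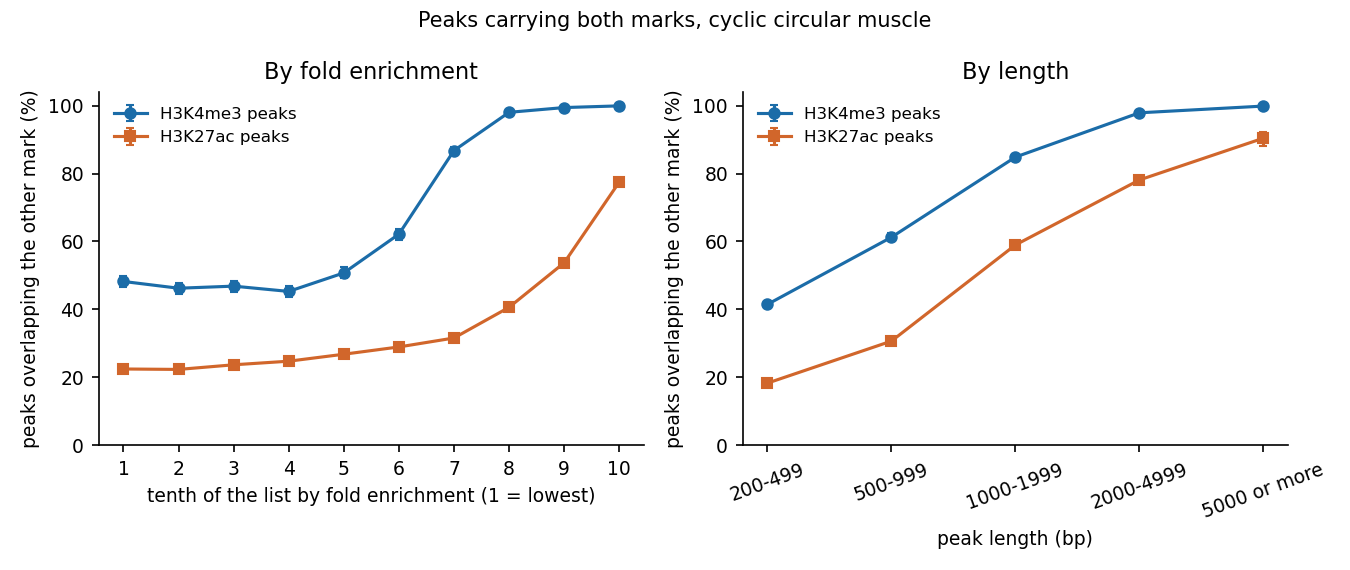
Share of peaks overlapping the other mark (%, y axis) for H3K4me3 (circles) and H3K27ac (squares), by decile of fold enrichment within the list (left) and by peak length in bp (right), with 95% Wilson intervals for counting error. H3K4me3 goes from below 51% in the 5 weakest deciles to 99.9% in the strongest, and H3K27ac from 22.5% to 77.5%.

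Length followed the same course. H3K4me3 peaks under 500 bp carried H3K27ac in 41.5% of cases, those of 1000 to 2000 bp in 84.8%, and 1374 of the 1376 peaks of at least 5000 bp did. For H3K27ac the shares were 18.3% under 500 bp and 90.4% from 5000 bp. Fold and length were tied within a list, with a Spearman rho of 0.81 over H3K4me3 and 0.48 over H3K27ac peaks, so both curves describe partly the same peaks. A longer peak also has more room to meet the other mark by 1 bp, and this was not corrected for. In the 31054 overlapping pairs the H3K4me3 peak was the longer in 70.7%, and in 58.2% the H3K27ac peak lay wholly inside it. The rank of the paired peaks was loosely related, with a rho of 0.33, and their lengths less so, with 0.17. Most H3K4me3 peaks with both marks met 1 H3K27ac peak (20239), and 18.5% held several: 3509 held 2 and 1091 at least 3, up to 18.

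The longest domains differed between the marks. The longest H3K4me3 peak spanned 51801 bp (chr5:3404563-3456363), had 4 H3K27ac peaks over 97.2% of its length, and lay at no protein-coding gene with a symbol other than a locus number. The next covered 31686 bp of the HOXA cluster (chr18:45392074-45423759), the homeobox genes that pattern the body axis and the reproductive tract, and was 91.8% under 7 H3K27ac peaks. The third spanned 29865 bp (chr2:7856354-7886218) over 8 genes, among them VEGFB, an endothelial growth factor, PLCB3, a phospholipase of receptor signalling, and FERMT3, an integrin activator. Only 60.8% of this domain lay under H3K27ac, in 12 peaks. The longest H3K27ac peak, 24683 bp in ST5 (chr9:679613-704295), was wider than the H3K4me3 below it, which covered 31.9%. The other long H3K27ac peaks were neighbours around IL17B, a cytokine gene (chr2:150533587-150557075 and chr2:150558022-150580169), and were 97.4% and 89.1% under H3K4me3. The first of this pair had a fold of 3.37 in spite of its 23489 bp, at the 43.8 percentile, and the other 6.93, at the 97.5 percentile.

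At genes the marks went together more often than peak by peak, but under a looser definition. A gene was given the strongest peak of each mark within 3 kb of either of its ends, and these peaks did not need to overlap. Of 19533 protein-coding genes, 13358 had both marks (68.4%, 67.7 to 69.0), 4699 had neither, 779 had H3K4me3 only and 697 had H3K27ac only. Among the 14834 genes with a peak, these classes made up 5.25% and 4.7%. At genes with both marks the strongest peaks overlapped each other in 85.9%. Median percentiles were 83.3 for H3K4me3 and 85.5 for H3K27ac, and 84.5% of these genes were in the upper part of both lists, above the 50 percentile. The H3K4me3 peak was longer at 91.8% of them, with medians of 2816 bp and 1606 bp.

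The ranks of the marks at these genes had a Spearman rho of 0.59, and their lengths 0.58. The 13358 genes drew on 10863 distinct H3K4me3 peaks, so neighbouring genes shared peaks. The percentile of H3K4me3 minus that of H3K27ac had a median of −0.24 (interquartile range −7.37 to 11.7), and 54.2% of genes lay within 10 points. The genes at the top of both lists were KCTD10 (shared with UBE3B), an adaptor of ubiquitin ligases, FAM53C (shared with KDM3B), ZCCHC3, SOX4, a transcription factor, HADHA (shared with HADHB), which carries out mitochondrial fatty acid oxidation, and FNDC3A. Their folds ran from 49.3 to 59.1 for H3K4me3 and from 10.1 to 11.2 for H3K27ac, and both percentiles of each were at least 99.9.

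Disagreement of at least 50 points was rare and lopsided. H3K4me3 ranked at least 50 points higher at 468 genes, 3.5% of those with both marks, and H3K27ac at 56 genes, 0.419%. The counts did not end abruptly at the limit: 378 genes lay 40 to 50 points and 232 lay 50 to 60 points toward H3K4me3, and 45 and 25 toward H3K27ac. MT1A, a metallothionein, was just inside at 50.03 and TRMT10B just outside at 49.96. On the other side HP, the haptoglobin gene, was inside at −50.3 and FAM50B outside at −49.3. The imbalance depended on the scale. When percentiles were taken among the genes' strongest peaks rather than among all peaks, 484 genes ranked higher for H3K4me3 and 349 for H3K27ac. When peaks were ranked by −log10 p in place of fold, the counts were 202 and 60.

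**Figure D2:**
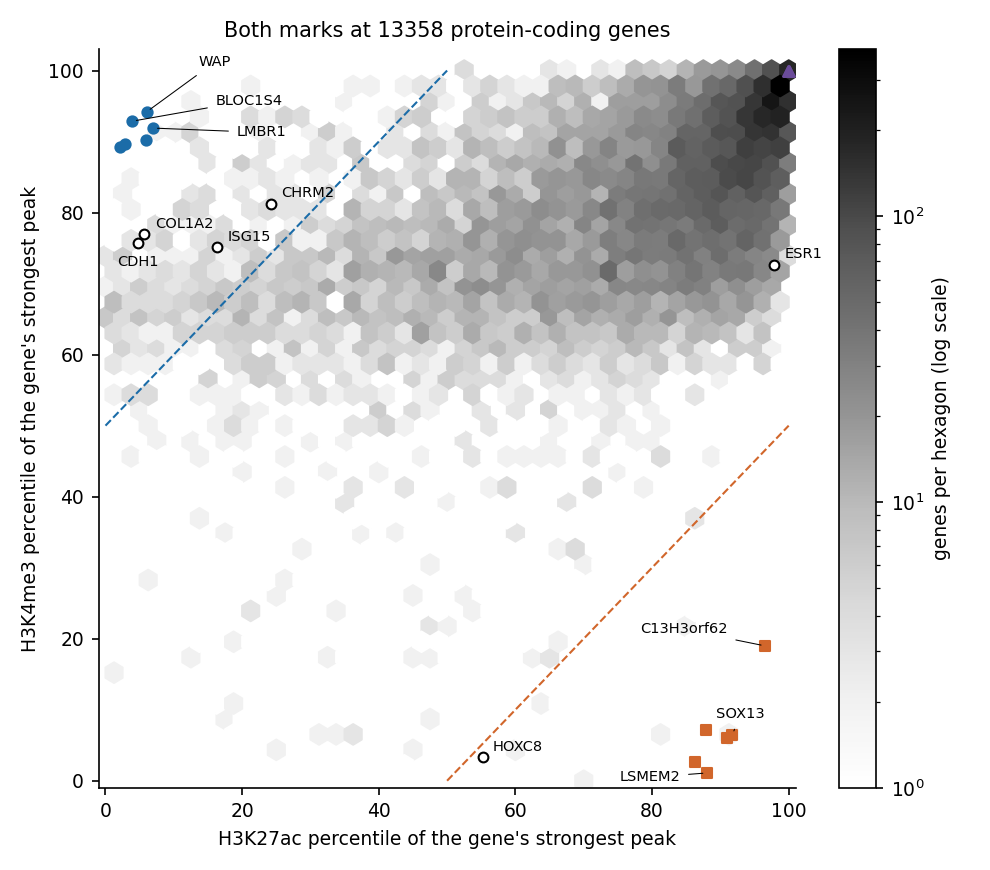
Percentile of the strongest H3K27ac peak (x axis) and of the strongest H3K4me3 peak (y axis) at the 13358 genes with both marks, with grey hexagons shaded by the number of genes on a log scale. Dashed lines mark a difference of 50 points. Filled circles, squares and triangles are the genes with the largest difference toward H3K4me3, toward H3K27ac, and with the highest ranks of both marks, and open circles are genes from the lists. Most genes crowd the upper right corner, 468 lie above the upper line and 56 below the lower line.

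Among genes with a name, the largest excess of H3K4me3 was at BLOC1S4, WAP, C1H15orf62, OAS1, LMBR1 and RBBP7. BLOC1S4 encodes a subunit of the complex that builds lysosome-related organelles. At BLOC1S4 the gene end carried an H3K4me3 peak of 1286 bp with a fold of 27.3 (chr8:4094856-4096141, percentile 92.9) and, within it, an H3K27ac peak of 821 bp with a fold of 2.37 (percentile 3.92), a difference of 89.0. LMBR1 had percentiles of 91.9 and 7.01 at overlapping peaks of 2494 bp and 1512 bp, and its difference of 84.9 became 38.6 when the whole gene was searched. RBBP7, a histone chaperone on the X chromosome, had percentiles of 90.2 and 5.86 at overlapping peaks of 2887 bp and 1300 bp. At these 3 genes the peaks touched the gene end. At WAP, a milk protein gene, C1H15orf62 and OAS1, an interferon-induced antiviral enzyme, the H3K4me3 peak lay 1887, 2592 and 2934 bp from the nearest gene end and did not overlap the H3K27ac peak, so for these genes the assignment of the peaks is uncertain. All 6 kept a difference of at least 50 points when ranked by −log10 p, from 66.7 to 90.6. In the other tissues the excess was smaller at all 6 genes wherever both marks were called. They were picked for the largest differences in CD15M_CM, so part of this drop follows from the choice. BLOC1S4 differed by 18.5 points in GD15M_CM and 4.48 in GD15M_LM, LMBR1 by 53.8 and 4.24, and RBBP7 by 49.3 and 0.11. C1H15orf62 differed by 23.5 points in GD15M_CM and 24.7 in GD15M_LM. OAS1 differed by 25.5 in GD15M_CM and had neither mark in GD15M_LM. WAP differed by 56.4 points in GD15M_LM, and in GD15M_CM it had a weak H3K4me3 peak (percentile 1.34) and no H3K27ac.

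Toward H3K27ac the extremes were LSMEM2, SOX13, POU2F3, KIF3C, NCR2 and C13H3orf62. LSMEM2, a small membrane protein gene, had an H3K27ac peak of 1580 bp at its gene end with a fold of 5.18 (chr13:32752394-32753973, percentile 88.0) and an overlapping H3K4me3 peak with a fold of 2.27 (percentile 1.10), a difference of −86.9. SOX13, a transcription factor, had an H3K27ac peak of 4666 bp, at percentile 91.8, and a separate H3K4me3 peak of 278 bp at percentile 6.47. For POU2F3, the transcription factor of tuft cells, the percentiles were 91.0 and 5.95. NCR2, a receptor of natural killer cells, had 87.8 and 7.17, at separate peaks near opposite ends of the gene. The KIF3C peaks did not overlap either. The H3K27ac peak lay 2868 bp from the gene end at SOX13, 1738 bp at POU2F3 and 1550 bp at KIF3C. For SOX13, POU2F3, NCR2 and KIF3C the assignment of the peaks is therefore uncertain. The order of the marks was the same in the other tissues wherever both were called. LSMEM2, POU2F3 and NCR2 carried H3K27ac only in both GD15M_CM and GD15M_LM, and the differences of the other 3 were −68.2 at SOX13 in GD15M_CM, and −55.2 at KIF3C and −53.2 at C13H3orf62 in GD15M_LM. In CD15M_CM, KIF3C, a kinesin, had a difference of −83.6 that moved to −5.22 when the whole gene was searched.

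The 468 genes with the weaker H3K27ac ranked lower for it by fold than by −log10 p. They were picked by fold, so part of this gap follows from the choice. Their median H3K27ac percentile was 14.0 by fold and 35.6 by −log10 p, against 85.5 and 89.3 over all genes with both marks. The H3K27ac peaks of the 468 had a median length of 1002 bp, against 1606 bp over all genes with both marks. By −log10 p 467 of the 468 still ranked higher for H3K4me3, 180 by at least 50 points. COL1A2, a fibrillar collagen gene, was an example. Its H3K27ac peak at the gene end was 3218 bp long with a fold of only 2.42 (percentile 5.69). It lay under an H3K4me3 peak of 3894 bp with a fold of 16.7 (percentile 77.0). By −log10 p the difference of 71.3 fell to 24.2. Farther inside the gene, outside the window, COL1A2 had another H3K27ac peak at percentile 87.3. The difference at COL1A2 was 0.07 in GD15M_CM and 8.23 in GD15M_LM. CDH1, the epithelial cadherin, kept most of its difference, 70.9 by fold and 62.1 by −log10 p. Of the 56 genes with the stronger H3K27ac, 44 stayed at least 50 points apart by −log10 p. Their H3K4me3 peaks had a median length of 366 bp. The strongest peaks of the marks overlapped at 58.9% of these 56 genes, against 85.9% of all genes with both marks.

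The 779 genes with H3K4me3 only had modest peaks. Their median percentile was 56.0 (interquartile range 37.3 to 64.1), their median length 904 bp, and 10 reached the 90 percentile. By rule the strongest were GSDMA, CYP27B1, CNKSR2, EHBP1, MPZL3 and TEX38, with percentiles from 93.8 to 98.5. For 4 of these (GSDMA, CYP27B1, EHBP1 and TEX38) the peak lay 1551 to 2983 bp from the gene end and overlapped an H3K27ac peak just outside the window. Over all 779 genes this was so for 52, and 727 had an H3K4me3 peak that overlapped no H3K27ac at all. Among the 727, picked after their values were seen, the strongest were CNKSR2, MPZL3 and KNL1, already named, RAVER2, an RNA-binding protein gene (fold 23.9, percentile 88.9), FAM155A, a subunit gene of a sodium leak channel (fold 22.7, percentile 87.1), BNC1, a zinc finger factor of epithelia and mesothelium (fold 21.5, percentile 85.3), LAGE3 (fold 20.4) and ST8SIA6, a sialyltransferase (fold 20.2). CNKSR2 had no H3K27ac peak along its 277 kb, and the nearest one overlapped a small H3K4me3 peak beyond its far end, outside the window. RAVER2 and FAM155A carried H3K4me3 only in all 3 tissues, whereas KNL1 had both marks in GD15M_CM and GD15M_LM. Of 20 mitotic genes, a list added after KNL1 was seen, 18 carried both marks, the same share as over all genes with a peak, and the others were KNL1 and CCNB2.

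The 697 genes with H3K27ac only were weaker still within their list. Their median percentile was 42.1 (interquartile range 21.4 to 64.3) and their median length 490 bp, and 11 of their peaks overlapped H3K4me3 outside the window. The strongest were TXLNB, a taxilin of muscle (fold 6.56, percentile 96.5), S100A2, a calcium-binding protein gene (fold 6.44, percentile 96.1), KANSL1L (fold 6.06), PLPP1, a lipid phosphatase (fold 5.92), LRRC2 (fold 5.64) and SMIM2 (fold 5.63). The S100A2 peak was the longest of these, 2221 bp (chr4:96071684-96073904), covered the gene end and had shorter H3K27ac peaks on both sides. TXLNB, KANSL1L, PLPP1 and SMIM2 carried H3K27ac only in all 3 tissues, S100A2 had both marks in GD15M_LM, and LRRC2 had neither mark there.

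**Figure D3:**
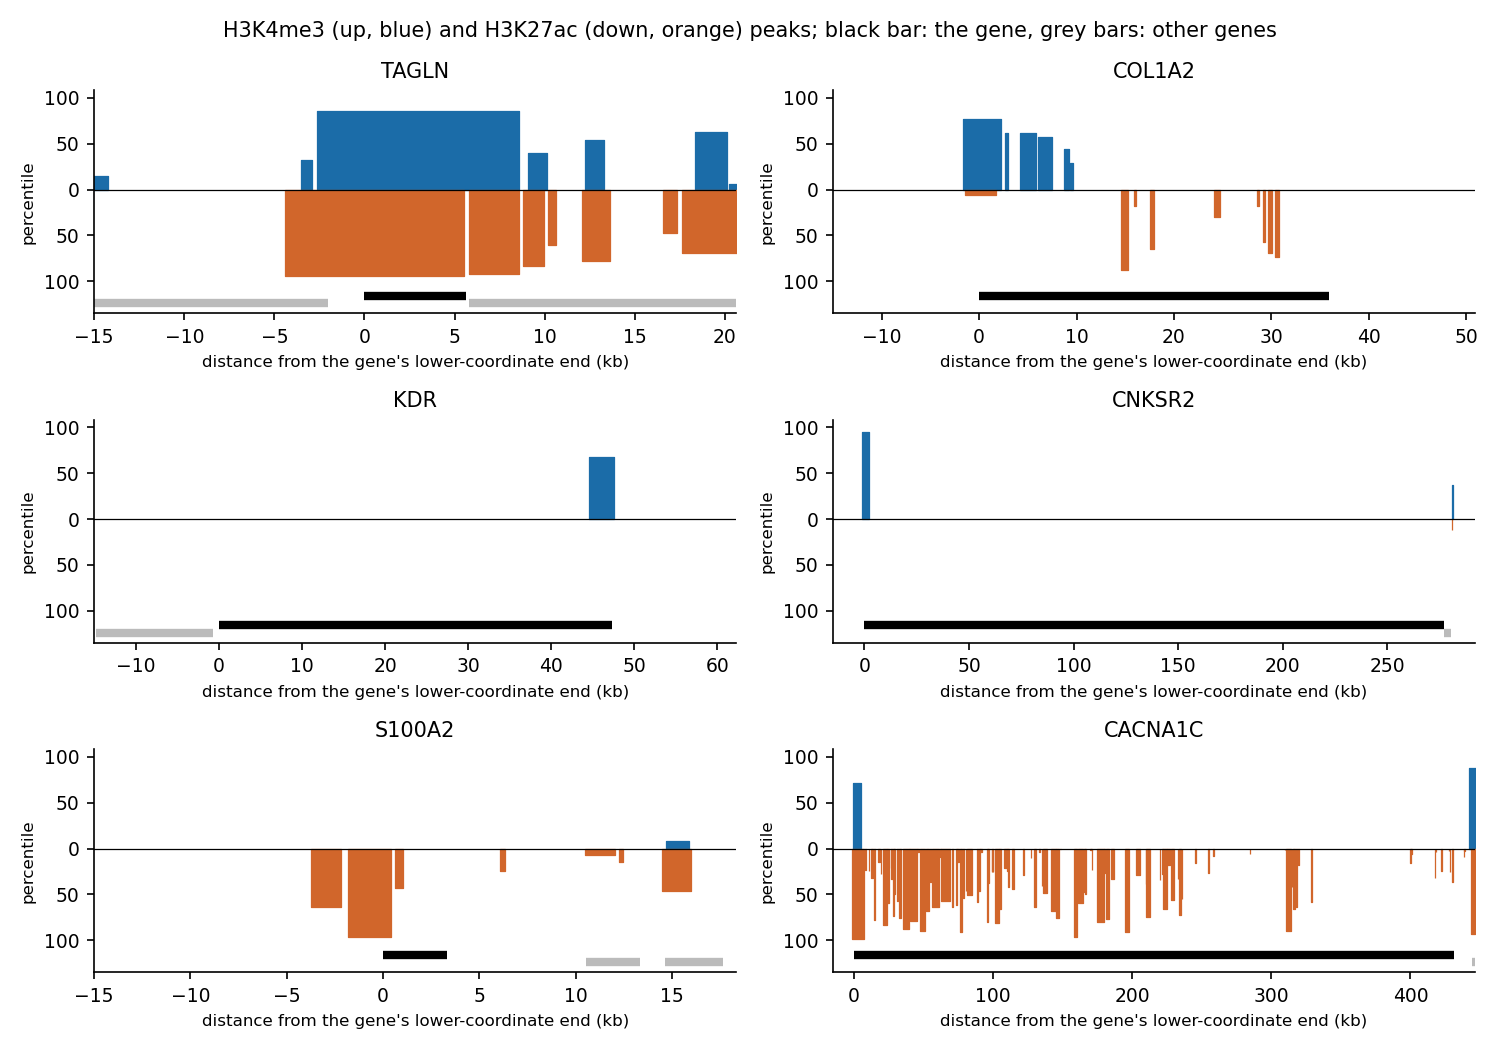
Peaks around 6 genes in CD15M_CM, with H3K4me3 drawn upward and H3K27ac downward, height as the percentile within its list (y axis) and position in kb from the gene end with the lower coordinate (x axis). The black bar is the gene and grey bars are other genes. TAGLN carries both marks over the whole gene, and COL1A2 a tall H3K4me3 over a low H3K27ac peak at its end, with taller H3K27ac peaks inside the gene. KDR and CNKSR2 carry H3K4me3 alone, S100A2 H3K27ac alone, and CACNA1C 101 H3K27ac-only peaks along its body.

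Class membership was partly kept across tissues, and a disagreement of at least 50 points was kept at few genes. Of the 779 genes with H3K4me3 only in CD15M_CM, 405 had H3K4me3 only in GD15M_CM (52.0%, against 4.31% of all genes) and 466 in GD15M_LM (59.8%, against 4.88%), and 277 did in all 3 tissues. For H3K27ac only, 395 of 697 recurred in GD15M_CM (56.7%, against 3.82% of all genes) and 318 in GD15M_LM (45.6%, against 2.53%), and 231 were found in all 3. Of the 468 genes at least 50 points higher for H3K4me3, 421 had both marks in GD15M_CM, and 37 of these were again at least 50 points higher (8.79%, against 2.65% of all genes with both marks). In GD15M_LM this held for 35 of 421 (8.31%, against 3.16%). Of the 56 genes on the other side, 4 of the 15 with both marks in GD15M_CM were again past 50 points (26.7%, against 0.502% of all) and 5 of 31 in GD15M_LM (16.1%, against 0.330%). In all 3 tissues 2 genes were past 50 points toward H3K4me3 and none toward H3K27ac.

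Most genes of the contractile apparatus carried both marks at high rank. Of 17 smooth muscle contractile genes, 16 had both marks, against 68.4% of all protein-coding genes and 90.05% of those with a peak. Median percentiles were 88.9 for H3K4me3 and 94.2 for H3K27ac, against 82.4 and 84.7 over all protein-coding genes with that mark. High ranks were not particular to this list: HOX genes had medians of 92.6 and 91.4, and immediate early genes 89.4 and 89.4. The H3K4me3 peaks of the contractile genes had a median length of 6224 bp against 2744 bp over all genes, and their H3K27ac peaks 2756 bp against 1556 bp. TAGLN, the actin-binding transgelin of smooth muscle, had an H3K4me3 peak of 11232 bp at percentile 86.1 and an H3K27ac peak of 9935 bp at percentile 94.1. SRF, the factor that drives contractile genes, had percentiles of 98.9 for both. The differences ran from 13.1 at ACTA2, smooth muscle actin, to −27.9 at MYOCD, the SRF coactivator myocardin, and none reached 50 points. CALD1, caldesmon, was the only member without a peak at a gene end. The strongest peaks of the marks did not overlap at MYH11, SMTN, LMOD1, MYLK and MYOCD. At MYLK they lay at opposite gene ends, at percentiles of 64.0 for H3K4me3 and 67.8 for H3K27ac.

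Some contractile genes also held much H3K27ac away from their ends. The gene bodies of that list contained 184 H3K27ac-only peaks, 16.4 per 100 kb, against 3.15 per 100 kb over all protein-coding genes. The long genes MYLK, MYH11, CALD1 and SYNPO2 gave 155 of the 184, and 8 of the 17 genes, TAGLN and SRF among them, had none. CALD1 alone had 13.3 per 100 kb, MYH11, the smooth muscle myosin heavy chain, 30.6, and MYLK, the kinase that starts contraction, 20.3. Among the genes with the most H3K27ac-only peaks were RAD51B (132), KCNMA1, the large-conductance potassium channel of smooth muscle (107), CACNA1C, the L-type calcium channel that admits calcium for contraction (101), CUX1 (93) and GSE1 (90). These are long genes of 353 to 761 kb, but their density, 14.1 to 26.4 per 100 kb, was also above that of all genes. H3K4me3 was scarce in the channel genes, with 1 peak in CACNA1C and 3 in KCNMA1, and 12694 genes had no H3K27ac-only peak in their body.

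Receptors for uterine hormones and contractants were more varied. Of 17, 15 carried both marks, against 68.4% of all protein-coding genes, HTR2B, a serotonin receptor, carried H3K27ac only (percentile 79.3), and NR3C1, the glucocorticoid receptor, had no peak at a gene end. ESR1, the estrogen receptor, leaned to H3K27ac, with percentiles of 72.7 for H3K4me3 and 97.8 for H3K27ac, a difference of −25.1 that was −21.3 in GD15M_CM and −24.2 in GD15M_LM. PGR, the progesterone receptor, had percentiles of 90.3 and 80.1. OXTR, the oxytocin receptor, ranked lowest for H3K4me3, at 50.7 against 73.2 for H3K27ac, with peaks of only 461 and 566 bp. CHRM2, a muscarinic receptor, was the only member past 50 points, with percentiles of 81.3 and 24.2, a difference of 57.0. Its H3K27ac peak was 2539 bp long, and by −log10 p the difference was 15.1. PTGER4, a prostaglandin receptor, had a similar shape, with 68.7 and 23.7.

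No ribosomal or immediate early gene reached 50 points, and 2 of the interferon list did. For the counts below, 68.4% of all protein-coding genes and 90.05% of those with a peak carried both marks. Of 50 cytosolic ribosomal protein genes 48 carried both marks, with median percentiles of 88.9 and 91.9, RPS3 had H3K27ac only and RPL18 neither, and the differences ran from −19.8 at RPLP1 to 39.9 at RPL10. All 19 immediate early genes, which answer growth and stress signals within minutes, carried both marks, with differences from −39.7 at ATF3 to 45.4 at FOSB. Among 22 genes of the interferon response and antigen presentation, 20 carried both, 2 of them past 50 points toward H3K4me3 (3.5% of all genes with both marks were), and NLRC5 and CIITA, which switch on the major histocompatibility genes, had neither. ISG15, a ubiquitin-like protein induced by interferon, had an H3K4me3 percentile of 75.2 and an H3K27ac percentile of 16.3, a difference of 58.9 by fold and 23.6 by −log10 p. IRF8, a factor of myeloid and B cells, had 61.9 and 10.8, with an H3K27ac peak of 235 bp, and stayed 57.2 points apart by −log10 p.

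Developmental regulators differed by list. Of 36 HOX genes 31 carried both marks, against 68.4% of all protein-coding genes, with a median H3K4me3 length of 7565 bp. HOXB1, HOXB13, HOXC12, HOXC13 and HOXD13 had neither. HOXA10 and HOXD10 ranked at 99.1 and 98.3 for H3K4me3 and at 99.7 and 99.96 for H3K27ac. HOXC8 alone passed 50 points, with a difference of −51.8 and peaks of 326 and 329 bp at percentiles of 3.35 and 55.2. In the other direction HOXC4 had 46.8, HOXB8 44.8 and HOXC9 41.9. Many of these genes share a domain, and HOXA7 and HOXA9 have the same H3K4me3 peak of 31686 bp. Of 48 transcription factors of other lineages, 37 had neither mark, 6 had both and 5 had H3K4me3 only, against 24.1% of all protein-coding genes with neither and 3.99% with H3K4me3 only. The latter included OLIG1, FOXA1, DLX2 and TBX1, at percentiles from 39.2 to 62.8, and none of the list had H3K27ac only. PAX2, a kidney and reproductive tract factor, had an H3K4me3 peak of 6915 bp at percentile 74.5 and an H3K27ac peak of 220 bp at percentile 16.0, a difference of 58.5. DLX5, a homeobox factor, had 95.4 and 46.5. Of 23 neuronal genes 13 had neither mark, 8 had both, STMN2 had H3K4me3 only and RBFOX3 H3K27ac only.

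**Figure D4:**
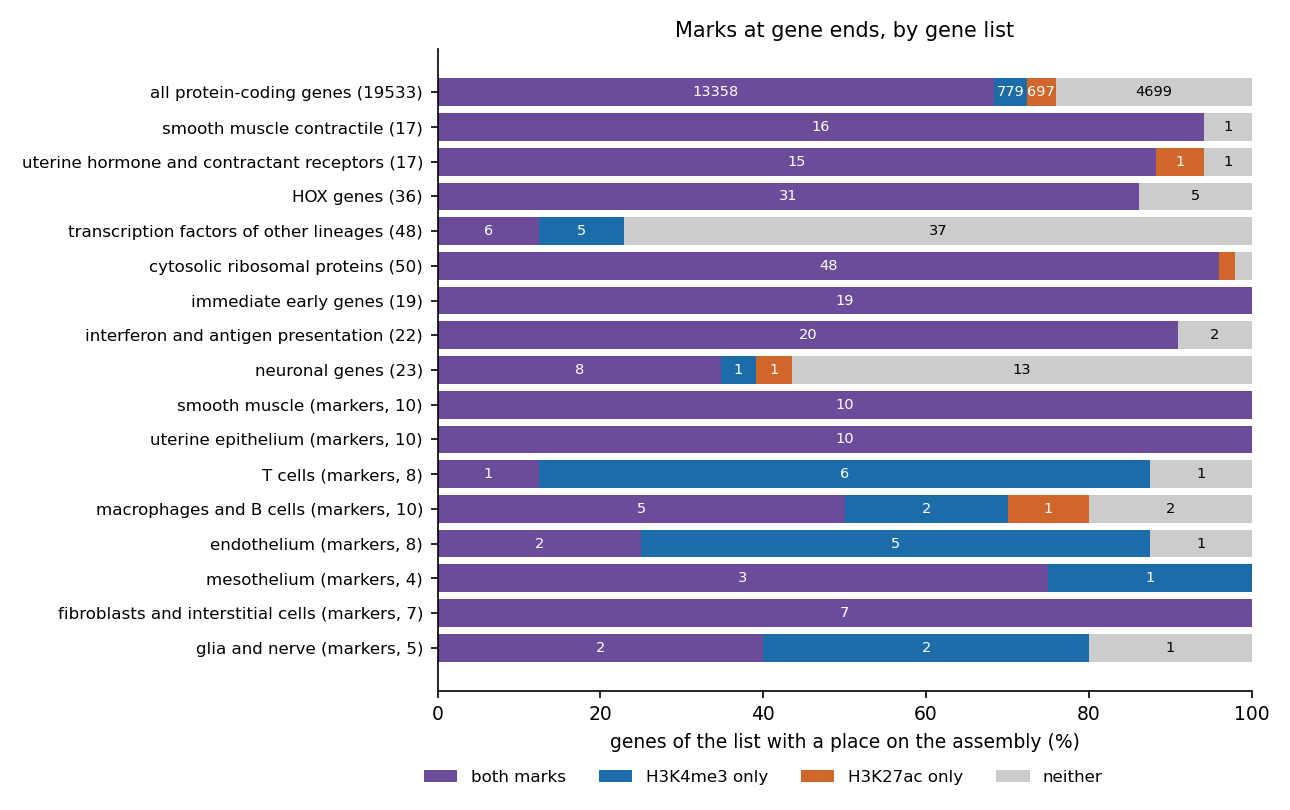
Protein-coding genes of each list by class of marks at their gene ends, in percent of the genes with a place on the assembly (x axis, number in brackets), with the number of genes printed in the bars. Both marks prevail over all protein-coding genes and in most lists, H3K4me3 only in the T cell and endothelial markers, and neither mark in factors of other lineages and neuronal genes.

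Markers of cells other than smooth muscle differed in which mark they showed. Of 8 T cell markers, 6 carried H3K4me3 only, among them the T cell receptor components CD3E, CD3D and CD3G and the surface proteins CD2 and CD5, against the 5.25% found over all marked genes. CD3D and CD3G share their peak. The H3K4me3 percentiles of these 5 ran from 17.98 at CD5 to 56.8 at CD2, against a median of 82.4 over all genes with H3K4me3. The 5.25% is therefore not like for like. Of all H3K4me3 peaks, 45.3% to 50.7% overlapped H3K27ac in the 5 lowest deciles and 62.2% in the next. LCK, the T cell kinase, had both marks, at 73.2 and 52.0, and CD8A neither. Under the strict threshold 2 of the 8 had H3K4me3 only and none had both. That class was common in this setting, at 50.2% of marked autosomal genes. CD3E and CD3D carried H3K4me3 only in all 3 tissues, and CD3G, CD2 and CD5 had both marks in GD15M_CM. Of 8 endothelial markers 5 carried H3K4me3 only: CDH5, the endothelial cadherin, KDR and TEK, receptors of vascular growth factors, VWF, the von Willebrand factor, and ERG, a transcription factor. Their H3K4me3 peaks were at percentiles from 59.7 to 67.3, with lengths from 843 to 3027 bp. In the deciles of these ranks 62.2% and 86.8% of all H3K4me3 peaks overlapped H3K27ac. PECAM1 and CLDN5 had both, with differences of 30.8 and 40.2. KDR, TEK and ERG carried H3K4me3 only in all 3 tissues.

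For the endothelial genes the absence of H3K27ac held for the gene ends and not for the gene bodies. With the whole gene searched, 7 of 8 had both marks and only KDR kept H3K4me3 alone, since VWF had 9, ERG 4, TEK 3 and CDH5 2 H3K27ac-only peaks inside the gene and TIE1, with no peak at its ends, had both marks inside. The T cell genes had none, and 6 of 8 still carried H3K4me3 only. The remaining markers were mixed, beside 90.05% of all protein-coding genes with a peak that carried both marks. All 10 uterine epithelial markers carried both marks, as did all 7 markers of fibroblasts and interstitial cells, while macrophage and B cell markers had 5 with both, 2 with H3K4me3 only (CD163 among them), CD79B with H3K27ac only and 2 with neither. Of 4 mesothelial markers BNC1 had H3K4me3 only and 3 had both, and of 5 glial and nerve markers 2 had H3K4me3 only (UCHL1 among them), 2 had both and 1 had neither. Epithelial markers had a median H3K27ac percentile of 70.9, below the 84.7 over all genes. With the H3K27ac list shortened in the same way to the length of the H3K4me3 list, H3K4me3 only became more common among all genes. It was found at 12.7% of marked autosomal genes, against 4.82% with the full lists. In this setting 4 of the 10 epithelial markers, 7 of the 8 endothelial markers and 1 of the 10 smooth muscle markers had H3K4me3 only. The number of cells of each type was not measured, and its part in these classes was not tested.

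The X chromosome stood apart from every autosome, a pattern picked out after the values were seen. Of 499 X-linked genes with a peak, 87 carried H3K4me3 only (17.4%, 14.4 to 21.0), against 4.82% of autosomal genes (4.48 to 5.18) and 3.72% to 9.88% over the 18 autosomes taken singly. For 12 of the 87 the H3K4me3 percentile was 70 or more. Those whose peak itself lacked H3K27ac included CNKSR2, LAGE3, a subunit of a tRNA-modifying complex (percentile 83.6), SLC9A7, a proton exchanger (percentile 76.0), CHST7, a sulfotransferase (percentile 72.5), and HAUS7, a subunit of the spindle complex augmin (percentile 71.2). H3K27ac only was less frequent on X, at 11 genes, 2.204% of those marked, against 4.79%.

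Where X-linked genes had both marks, H3K27ac ranked lower. Its median percentile was 61.9 on X and 86.0 on the autosomes, and that of H3K4me3 76.8 and 83.6. The difference had a median of 14.7 on X and between −1.64 and 0.76 on the autosomes. H3K4me3 was at least 50 points higher at 60 of 401 X-linked genes (15.0%, 11.8 to 18.8) and at 3.15% of autosomal genes, with 1.40% to 4.94% over single autosomes. By −log10 p these shares were 9.73% and 1.26%. With percentiles taken among the genes' strongest peaks they came close, at 5.24% and 3.57%, and with a strict threshold they were 18.7% of 75 genes and 15.3%. The share with H3K4me3 only, in contrast, stayed higher on X in each alternative, and under the strict threshold it was 83.4% against 50.2%. The same pattern was present in the other tissues. In GD15M_CM 21.1% of marked X-linked and 5.26% of autosomal genes had H3K4me3 only, in GD15M_LM 16.9% and 6.22%, and 34 of the 87 genes did so in all 3 tissues. Peak by peak, 64.0% of X-linked H3K27ac peaks overlapped H3K4me3, against 34.6% on the autosomes. The share of H3K4me3 peaks with H3K27ac was nearly the same on X, at 66.8% (63.5 to 69.95), as on the autosomes, at 68.6%. These shares are not like for like, because overlap rose with strength and length. X-linked H3K4me3 peaks had a median percentile of 67.1 against 49.6 on the autosomes, and a median length of 1454 bp against 790.5 bp. For H3K27ac the direction was opposite, with a median percentile of 44.4 on X against 50.3, and a median length of 502 bp against 560 bp. The higher overlap of X-linked H3K27ac peaks thus came with slightly weaker and shorter peaks. X held 2.27% of all H3K4me3 peaks but 1.45% of H3K27ac peaks.

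**Figure D5:**
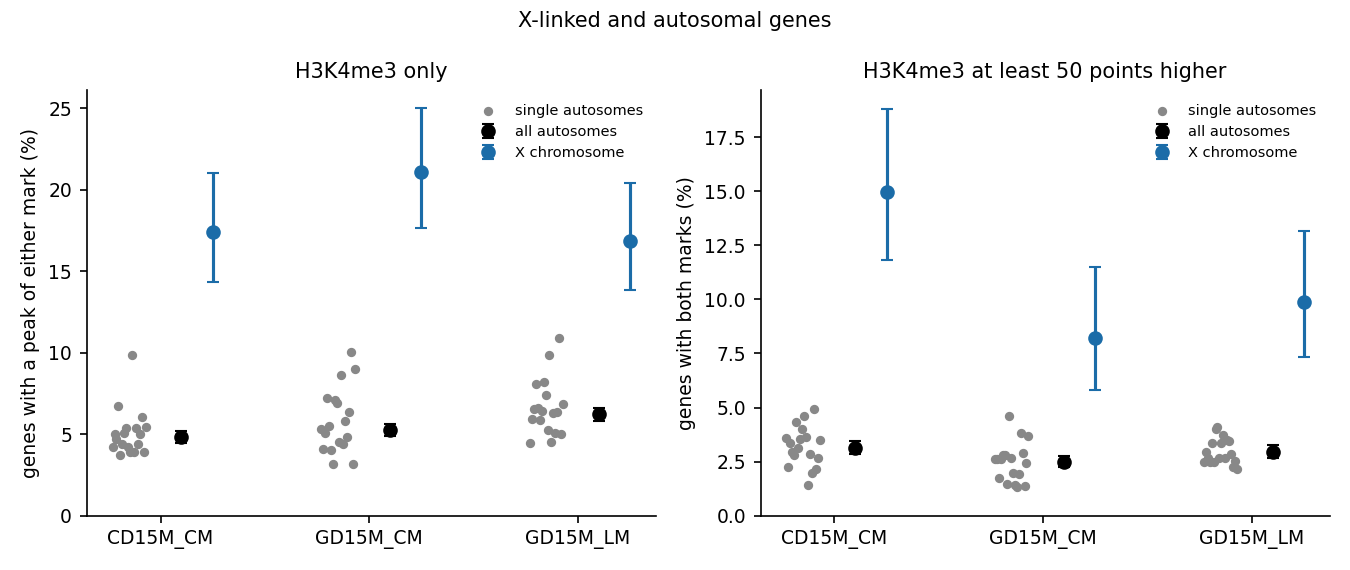
Share of marked genes with H3K4me3 only (left, %) and share of genes with both marks at which H3K4me3 ranks at least 50 points higher (right, %), in the 3 tissues. Grey points are single autosomes, black points all autosomes and blue points the X chromosome, with 95% Wilson intervals for counting error. In CD15M_CM the X chromosome lies at 17.4% and 15.0%, above every autosome in both panels and in each tissue.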

How the data were processed

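CUT&Tag with antibodies to H3K4me3 and H3K27ac and an IgG control had been run on 2 gilts per tissue. The authors aligned reads to the Sus scrofa 11.1 assembly (BWA, v0.7.17-r1188), removed duplicates and reads of mapping quality below 25 (SAMtools, v1.9; Picard, v2.8.3), and pooled the replicates for peak calling in MACS2 (v2.2.6), whose extension was set to 3 kb. The deposited lists give each peak's position, length, fold enrichment (a ratio of the mark over IgG), and −log10 p and −log10 q. The headers of the last 2 columns were unreadable in the deposited lists: −log10 p was identified by matching peaks of the study's peak table, and −log10 q was inferred and not used.

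Here peaks were ranked within their list (Python 3.11.15, pandas 2.3.3, NumPy 2.4.6, SciPy 1.17.1; figures with Matplotlib 3.10.9). Peaks were joined to 19533 RefSeq protein-coding genes of the same assembly on chromosomes 1 to 18, X and Y. Only the position of peaks near, inside or outside genes was taken against all RefSeq genes on these chromosomes, coding or not. Gene strand was not used here, so the window was 3 kb around either gene end and includes 3′ ends. Overlap and gene assignment were tested on simulated data. No test between samples was made.

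The rule for named genes took 6 genes each with the strongest peak of only H3K4me3 or only H3K27ac, the largest difference in each direction, the highest ranks of both marks and the most H3K27ac-only peaks in the gene body, the genes of the 3 longest peaks per mark, and list members past the call or at the extremes. Genes known only by a locus number were left out. List genes without a placed match by symbol (MRTFA, HOXB4, HOXB9, HOXD4, NR4A1, ELAVL4, GRIN1, LHX3, PAX8, ZAP70, EGFL7, S100B and MSLN) were not counted. Some genes that enter the counts are not reported here by name. Members and lists were chosen with earlier results of these data known. Alternatives were the strict threshold, joining neighbouring peaks across gaps under 1 kb, lists of equal length, other overlaps and windows, all RefSeq genes, and other rankings.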

Additional observations from a re-analysis of the deposited data

Results flagged for a closer look

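Among the named genes past 50 points in CD15M_CM, the order of the marks in CD15M_CM was opposite to that in another tissue at 2. Smaller differences were not compared in this way. CHRM2 ranked 57.0 points higher for H3K4me3 in CD15M_CM, −2.01 in GD15M_CM and 12.4 in GD15M_LM. PAX2 ranked 58.5 points higher for H3K4me3 in CD15M_CM and −11.05 in GD15M_CM, and had H3K4me3 only in GD15M_LM. Each value comes from 1 pooled list per mark, and the difference between tissues was not tested.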

How the results depend on the processing

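No paired analysis was possible because both gilts were pooled before peaks were called, and for the same reason leaving out a replicate was not run. Pooling gives no error between gilts, and weak peaks of either mark depend on a depth that the lists do not hold. The share of H3K4me3 peaks with both marks (68.4%) and that of H3K27ac peaks (35.2%) became 40.9% and 68.7% with the strict threshold, 81.3% and 37.1% with peaks merged, 53.2% and 54.3% with equal numbers of top peaks, 57.3% and 30.6% with at least 50% of the peak covered, and 79.8% and 39.7% with the other mark within 1 kb. Genes with H3K4me3 only (779) and H3K27ac only (697) numbered 6826 and 58 with the strict threshold and 1988 and 272 with equal numbers, and 1584 had H3K27ac only among all RefSeq genes. Genes at least 50 points higher for H3K4me3 (468) numbered 985, 1940 and 202 with the strict threshold, equal numbers and ranking by −log10 p. Those higher for H3K27ac (56) numbered 17 with equal numbers, 128 among all RefSeq genes and 349 with percentiles among the genes' strongest peaks. The rank correlation (0.59) was 0.42 with the strict threshold, 0.58 with peaks merged, 0.53 with equal numbers, 0.57 with a window of 1 kb and 0.58 among all RefSeq genes. For the 12 genes with the largest differences, 58 values under an alternative stayed past 50 points and 3 did not (KIF3C −48.8 with a window of 1 kb and −5.22 with the whole gene, LMBR1 38.6 with the whole gene). No value was had where both marks were no longer called, which was so for all 12 with the strict threshold, for the 6 toward H3K4me3 with equal numbers, and for 5 with a window of 1 kb (WAP, C1H15orf62, OAS1, SOX13 and POU2F3). Leaving out genes whose strongest peak overlaps the other mark outside the window, chosen after seeing the data, left 727 and 686.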
